A study of Mus musculus with 12 samples.

Results

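Fibrillar collagens are the chains that build the banded fibrils of connective tissue, and 10 of the 770 genes of the nCounter Mouse PanCancer Pathways panel encode such a chain. They were chosen by gene symbol, by a rule that uses no measured value although earlier results of these data were known, and are Col1a1, Col1a2, Col2a1, Col3a1, Col5a1, Col5a2, Col11a1, Col11a2, Col24a1 and Col27a1. The panel counts RNA molecules with color-coded probes and without amplification. Their signals were compared between 5 RBS lesions, 4 control eyes and 3 Shh-MBs, 1 sample per animal, all from frozen tissue.

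RBS lesions came from Rax-creERT2::Ctnnb1(ex3)Fl/+SmoM2Fl/+ embryos that received tamoxifen at E8.5 and were examined at E18.5. In these embryos the Rax promoter, which is active in retinal precursors, drives the inducible Cre, so that recombination stabilizes beta-catenin and switches on an active form of Smo in cells of the early eye field and their progeny. Control eyes were also of E18.5 and carried Ctnnb1(ex3)Fl/+SmoM2Fl/+ without a Cre driver, so that both floxed alleles were shared with the RBS embryos. Whether the control embryos were exposed to tamoxifen is not in the labels. Shh-MBs, Sonic hedgehog-driven medulloblastomas, were cerebellar tumors of hGFAP-cre::SmoM2Fl/+ mice aged 14 days, which carry the SmoM2 allele and not the Ctnnb1(ex3) allele. They differed from the eyes in tissue, age and Cre driver as well as in genotype, and these differences cannot be told apart. All samples were whole tissue, in which fewer cells of a type and less RNA per cell cannot be told apart.

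Each collagen molecule is a triple helix of 3 alpha chains. Type I collagen, made of Col1a1 and Col1a2 chains, forms the bulk of fibrils in skin, bone, sclera and the corneal stroma. Type III collagen, made of Col3a1 chains, joins type I in skin and other soft tissues, and type V collagen, made of Col5a1 and Col5a2 chains, starts these fibrils and limits their width. Type II collagen, made of Col2a1 chains, and type XI collagen, which contains Col11a1 and Col11a2 chains, form the thinner fibrils of cartilage and of the vitreous body. In the embryonic eye, fibroblast-like cells of the periocular mesenchyme lay down sclera and corneal stroma, while the vitreous collagens are made by cells of the retina and ciliary body.

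Promoter windows from RefSeq (GRCm38.p6) were found for 7 of the 10 genes. The 250 bases before the start of transcription are shown for 4 of them, 5′ to 3′, to set 3 genes with lower signal in RBS lesions (Col1a2, Col11a1 and Col24a1) beside Col3a1, which had nearly the same mean in control eyes. Capitals mark matches to CCAAT, a promoter element of many genes that also reads ATTGG on the opposite strand, or to TATAAA, the TATA box letters, which read TTTATA on the opposite strand.
Col1a2 (chr6:4505368-4505617, + strand): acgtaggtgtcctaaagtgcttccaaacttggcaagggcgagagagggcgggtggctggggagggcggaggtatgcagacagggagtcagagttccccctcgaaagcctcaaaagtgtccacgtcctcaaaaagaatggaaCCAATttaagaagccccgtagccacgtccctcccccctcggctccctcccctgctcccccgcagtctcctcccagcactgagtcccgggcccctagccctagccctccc
Col3a1 (chr1:45311288-45311537, + strand): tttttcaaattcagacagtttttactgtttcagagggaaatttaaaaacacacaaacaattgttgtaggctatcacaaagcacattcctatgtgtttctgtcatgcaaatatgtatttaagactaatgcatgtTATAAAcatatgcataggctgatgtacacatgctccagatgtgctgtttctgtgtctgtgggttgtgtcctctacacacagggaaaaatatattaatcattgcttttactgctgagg
Col11a1 (chr3:114030290-114030539, + strand): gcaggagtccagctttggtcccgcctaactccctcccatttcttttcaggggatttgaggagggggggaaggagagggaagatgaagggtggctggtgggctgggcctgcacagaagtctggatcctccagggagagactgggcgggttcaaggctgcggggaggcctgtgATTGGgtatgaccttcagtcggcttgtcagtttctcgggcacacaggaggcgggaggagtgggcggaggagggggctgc
Col24a1 (chr3:145292222-145292471, + strand): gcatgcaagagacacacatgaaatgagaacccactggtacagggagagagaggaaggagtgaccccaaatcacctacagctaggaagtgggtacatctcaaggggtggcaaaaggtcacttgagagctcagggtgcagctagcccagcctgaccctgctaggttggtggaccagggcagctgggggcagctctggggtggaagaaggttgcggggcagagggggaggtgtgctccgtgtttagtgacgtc
Windows were searched over 250 bases before and 50 bases after the start. In Col1a2 a CCAAT began 109 bases before the start and a CCAAT on the opposite strand began at the start itself, just past the printed stretch. In Col3a1 a TATAAA began 117 bases before the start, and in Col11a1 a CCAAT on the opposite strand began 79 bases before it. The Col24a1 window held neither. Of the other windows, Col11a2 held a TATAAA that began 143 bases before the start, and those of Col5a1 and Col27a1 held neither. Each motif was thus in 2 of the 7 windows, while CCAAT was in 37.4% and TATAAA in 13.6% of the 32851 promoter windows searched in the same way. No window held both motifs. These matches are a description of letters, and no motif was in all 3 windows of the genes lower in RBS lesions. The windows of the 4 printed genes had a GC content between 37.7% in Col3a1 and 62.3% in Col11a1, where the median of all windows was 52.7%.

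The values are normalized signals, linear in the RNA count, in which a background level was already subtracted and each sample multiplied by a factor. The depth, taken as the total signal divided by the step between neighbouring low values, lay between 335392 counts above background in RBS 1 and 716684 in control 2. Between 52 and 123 genes per sample sat at the lowest value of that sample. Of 12 genes listed as defining for retina and eye, none is on the panel, so the eye samples could not be checked in this way, and of 6 listed for the cerebellum the panel holds Zic2. Zic2 was 223 to 347 in control eyes, 255 to 385 in RBS lesions and, in Shh-MBs, 924 to 1142. Ctnnb1 was 5467 to 5869 in control eyes and 7400 to 8364 in RBS lesions, and Smo was 147 to 178 and 156 to 193. The part of each transcript that the probes read is not given in the sources used here, so these values do not test for the recombined alleles.

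Summed over the 10 genes, fibrillar collagens took 3.65% to 8.96% of the total signal in control eyes, 3.76% to 6.72% in RBS lesions and, in Shh-MBs, 0.157% to 0.210%. In the eyes, Col1a1, Col1a2 and Col3a1 together made up 88.0% to 91.3% of that sum. In Shh-MBs they made up 49.2% to 67.0%. Probes differ in efficiency, so levels are compared between samples and not between genes.

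**Figure D1:**
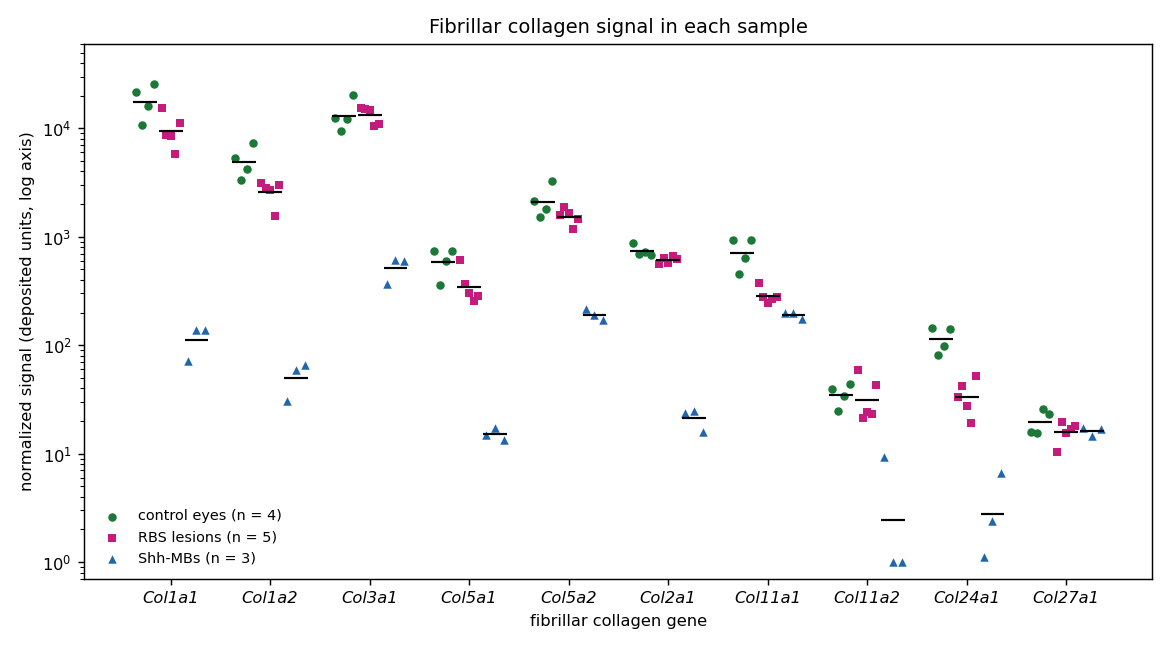
Normalized signal of the 10 fibrillar collagens in each sample, on a log axis, with control eyes as circles (n = 4), RBS lesions as squares (n = 5) and Shh-MBs as triangles (n = 3), and with a bar at the mean of the log2 values. For Col1a1 the 3 Shh-MBs sit between 70.8 and 139, while the lowest eye is RBS 4 at 5757, and for Col27a1 the 3 groups overlap.

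The first comparison asked how the collagens of the eye differ when both pathways are active in the retinal lineage. Against control eyes, 4 of the 10 genes were lower in RBS lesions with adjusted p-values below 0.05 (limma, Benjamini-Hochberg over all 770 genes), namely Col1a1, Col1a2, Col11a1 and Col24a1, and the other 6 did not pass. Over all genes 51.2% passed in either direction, 33.0% as higher and 18.2% as lower, so that differences in this comparison were common on the whole panel. The median log2 difference over the 10 genes was -0.60, against 0.17 over all genes. In Col1a2, Col2a1, Col11a1 and Col24a1 every RBS lesion lay below every control eye, while groups did not overlap in 43.4% of all genes, with lesions lower in 15.8% and higher in 27.5%. With other scalings, 7 genes were lower when each sample was centred on its median, 5 after quantile normalization and 6 when samples were brought to an equal sum over all but the 3 most abundant genes (summed-signal scaling). Of all 770 genes, 140 were lower as deposited and 177, 179 and 148 under these scalings. Without control 1, 2 of the 10 genes were lower.

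Type I collagen was lower in RBS lesions, by a little under 2-fold in both of its chains. The signal of Col1a1 was 21672, 10638, 16040 and 25754 in control eyes and 15305, 8736, 8436, 5757 and 11237 in RBS lesions. RBS 1 and RBS 5 lay above the lowest control eye, control 2, and the other lesions lay below all control eyes. Col1a1 was 1.87-fold lower (95% interval 1.12 to 3.13, log2 difference -0.90, standard error 0.327, adjusted p = 0.0438, limma). This call rests on single samples, since leaving out 1 sample ended it in 7 of 9 cases, with adjusted p up to 0.112 without control 4, and it was also lost, among other settings, after quantile normalization (adjusted p = 0.130) and with values under 20 set to 20 (adjusted p = 0.0693). Col1a2 encodes the other chain of the same molecule. Its signal was 5366, 3350, 4213 and 7287 in control eyes and 3147, 2825, 2709, 1553 and 3029 in RBS lesions. All 5 lesions lay below all 4 control eyes, with RBS 4 the lowest by a wide gap. Col1a2 was 1.88-fold lower (95% interval 1.23 to 2.89, log2 difference -0.91, standard error 0.272, adjusted p = 0.0202, limma). Among other settings, it missed the threshold without control 1 (adjusted p = 0.0533) and after quantile normalization (adjusted p = 0.0520).

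Type III collagen, which often shares fibrils with type I, had nearly the same mean in lesions and control eyes. The signal of Col3a1 was 12474, 9411, 12272 and 20230 in control eyes and 15283, 15084, 14789, 10546 and 10900 in RBS lesions. The groups overlapped fully, and control 4 was the highest of all. The log2 difference of Col3a1 was 0.01 (95% interval -0.50 to 0.52, adjusted p = 0.975, limma), so a 1.43-fold rise or a 1.42-fold fall is within the interval. Its sign turned to -0.17 with median centring and to -0.054 with summed-signal scaling.

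Type V collagen had lower means in RBS lesions in both chains, without passing the test. The signal of Col5a1 was 736, 357, 604 and 744 in control eyes and 604, 368, 302, 258 and 285 in RBS lesions. RBS 1 and RBS 2 lay above control 2, and the other 3 lesions lay below all control eyes. Its log2 difference was -0.76 (95% interval -1.44 to -0.08, adjusted p = 0.0600, limma), and among other settings it passed under median centring (adjusted p = 0.0212), quantile normalization (adjusted p = 0.0305) and summed-signal scaling (adjusted p = 0.0395), without RBS 1 (adjusted p = 0.0128) and without control 2 (adjusted p = 0.0169). For Col5a2, the partner chain, the signal was 2128, 1528, 1816 and 3236 in control eyes and 1584, 1885, 1643, 1191 and 1468 in RBS lesions. Here 3 of the 5 lesions lay inside the range of the control eyes. Col5a2 had a log2 difference of -0.44 (95% interval -0.94 to 0.06, adjusted p = 0.129, limma), and it passed with median centring (log2 difference -0.62, adjusted p = 0.0341).

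Among the chains of cartilage and vitreous fibrils, Col11a1 fell clearly, whereas Col2a1 and Col11a2 did not pass the test. The signal of Col2a1 was 869, 696, 718 and 681 in control eyes and 563, 639, 571, 665 and 629 in RBS lesions. The groups did not overlap, but the gap was small, and the log2 difference of -0.27 (95% interval -0.50 to -0.04, adjusted p = 0.0528, limma) fell just short of the threshold. Among other settings, Col2a1 passed under median centring, under quantile normalization and under summed-signal scaling, where its log2 difference was -0.45, -0.51 and -0.33, and without control 4 (adjusted p = 0.0488). Col2a1 was also the most even of the well expressed members, with a coefficient of variation of 7.25% in RBS lesions and 11.7% in control eyes, where Col1a1 had 36.3% and 35.6%.

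The signal of Col11a1 was 925, 455, 636 and 925 in control eyes and 375, 279, 246, 264 and 280 in RBS lesions. All lesions lay below all control eyes, with RBS 1 the highest of the lesions. Col11a1 was 2.46-fold lower (95% interval 1.73 to 3.52, log2 difference -1.30, standard error 0.227, adjusted p = 0.00123, limma), and the adjusted p stayed at or below 0.00428 whichever sample was left out. Col11a2, a partner chain of Col11a1, was weak in all samples. Its signal was 39.3, 24.7, 34.3 and 43.8 in control eyes and 59.5, 21.2, 24.2, 23.0 and 42.6 in RBS lesions. RBS 1 lay above all control eyes and 3 lesions lay below them. The log2 difference of Col11a2 was -0.15 (95% interval -0.88 to 0.58, adjusted p = 0.730, limma).

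Col24a1 and Col27a1 encode the chains of type XXIV and type XXVII collagen, which form a separate branch of the fibrillar family with small interruptions in the triple helix. Type XXIV collagen is known from developing bone and cornea and type XXVII from cartilage. The signal of Col24a1 was 145, 81.5, 99.1 and 142 in control eyes and 33.3, 42.2, 27.7, 19.3 and 51.7 in RBS lesions. The lowest control eye was well above the highest lesion. Col24a1 was 3.37-fold lower (95% interval 2.13 to 5.33, log2 difference -1.75, standard error 0.293, adjusted p = 0.000979, limma), the largest difference among the 10 genes in this comparison under the deposited scaling, and the adjusted p was at most 0.00391 whichever sample was left out. The signal of Col27a1 was 15.8, 15.6, 25.8 and 23.0 in control eyes and 10.3, 19.5, 15.4, 16.9 and 17.9 in RBS lesions. These signals are weak, from 6.28 steps of the count scale upward, and the groups overlapped. The log2 difference of Col27a1 was -0.30 (95% interval -0.79 to 0.18, adjusted p = 0.276, limma), and it passed after quantile normalization (log2 difference -0.63, adjusted p = 0.0333).

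**Figure D2:**
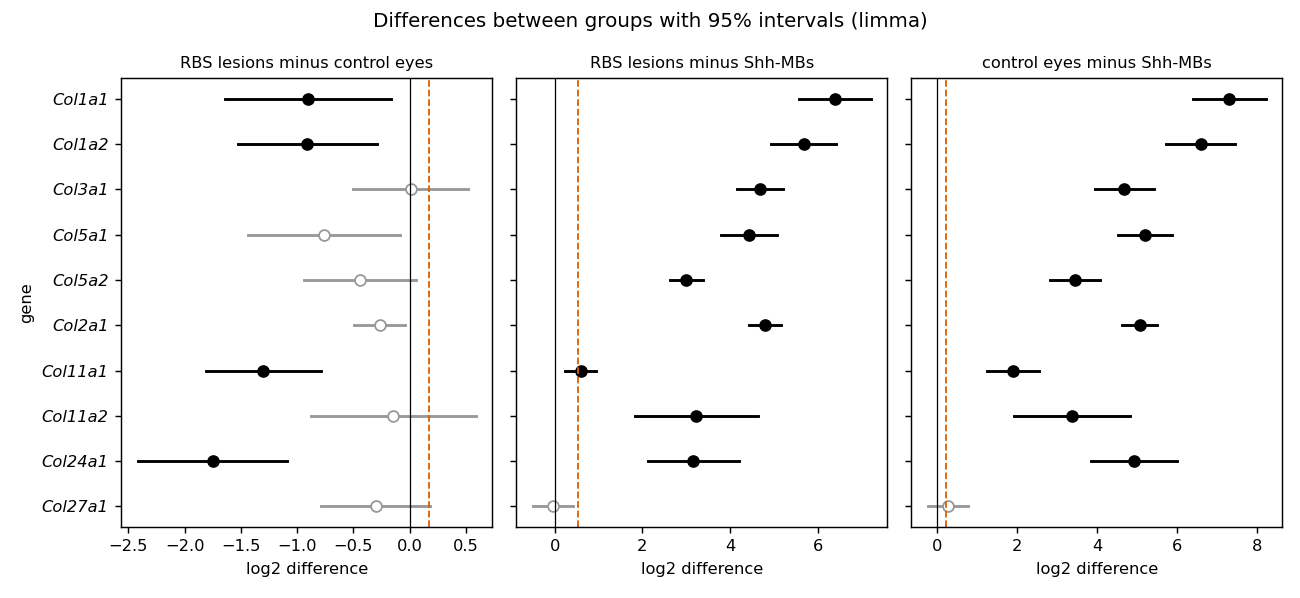
Log2 difference of each fibrillar collagen with its 95% interval from limma, for RBS lesions minus control eyes, RBS lesions minus Shh-MBs and control eyes minus Shh-MBs, with filled black points where the adjusted p was under 0.05, open grey points where it was not, and a dashed line at the median of all 770 genes. The horizontal scales differ between panels. Against control eyes the points reach from -1.75 for Col24a1 to 0.01 for Col3a1, and against Shh-MBs Col1a1 lies farthest from 0.

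The comparisons with Shh-MBs asked how far the collagens of the lesions resemble those of a brain tumor with active Shh signaling. They share their 3 tumors with each other and their eyes with the comparison above, so the 3 comparisons are not independent. Of the 10 genes, 9 were higher in RBS lesions than in Shh-MBs, where 60.8% of all genes passed in either direction, 48.1% as higher and 12.7% as lower. Of the 10, 9 were also higher in control eyes than in Shh-MBs, where 41.0% passed in either direction, 31.4% as higher and 9.61% as lower. In both comparisons these were all members except Col27a1, and in each of the 9 every eye lay above every tumor. The groups did not overlap in 59.9% of all genes for RBS lesions, with lesions higher in 47.0%, and in 48.2% for control eyes, with control eyes higher in 36.0%. The median log2 difference over the 10 genes was 3.83 for RBS lesions and 4.79 for control eyes, against 0.53 and 0.22 over all genes. With the values centred on the sample medians the number higher in RBS lesions was 8, since Col11a1 turned, and Col27a1 was lower, while of all 770 genes 181 were then higher and 319 lower.

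The widest gaps were in type I collagen. The signal of Col1a1 was 70.8, 139 and 138 in the Shh-MBs and that of Col1a2 was 30.5, 59.6 and 65.9. Shh-MB 1 had the lowest value of both. Relative to Shh-MBs, Col1a1 was 83.9-fold higher in RBS lesions (95% interval 47.9 to 147, adjusted p = 3.62e-06, limma) and 157-fold higher in control eyes (95% interval 83.7 to 295, adjusted p = 1.90e-05, limma). Col1a2 was 51.2-fold higher in RBS lesions (95% interval 30.7 to 85.1) and 96.3-fold higher in control eyes (95% interval 53.0 to 175).

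The signal of Col3a1 was 365, 610 and 603 in the tumors, with Shh-MB 1 again the lowest. It was 25.6-fold higher in RBS lesions (95% interval 17.9 to 36.7) and 25.5-fold higher in control eyes (95% interval 15.3 to 42.3). Col5a1 was 14.8, 17.4 and 13.4 in the tumors, and it was 21.5-fold higher in RBS lesions and 36.5-fold higher in control eyes. Col5a2 was 217, 189 and 169, and the corresponding folds were 8.01 and 10.9. All of these passed with limma in both comparisons.

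Col2a1 was 23.8, 24.9 and 15.9 in the Shh-MBs, 27.7-fold below RBS lesions (95% interval 21.5 to 35.7) and 33.4-fold below control eyes (95% interval 24.6 to 45.2). Col11a1 stood apart from the others, since the tumors had 198, 197 and 174. All 5 lesions lay above these values, by 1.51-fold (95% interval 1.19 to 1.91, adjusted p = 0.00858, limma), but the log2 difference of 0.59 fell to 0.22 with summed-signal scaling, to 0.069 with quantile normalization, and turned to -0.26 with median centring, and it did not pass in any of these. Control eyes were 3.71-fold above the tumors in Col11a1 (95% interval 2.37 to 5.80, adjusted p = 0.00148, limma).

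Col11a2 was 9.22 in Shh-MB 1 and at the lowest value, 1, in the other two, so the size of its difference depends on the value added before log2. Its log2 difference was 3.23 for RBS lesions (adjusted p = 0.00186, limma) and 3.38 for control eyes (adjusted p = 0.00435, limma). Col24a1 was 1.12, 2.41 and 6.57 in the Shh-MBs, of which the first is the lowest value of its sample. Here the log2 difference was 3.16 for RBS lesions (adjusted p = 0.000402, limma) and 4.91 for control eyes (adjusted p = 0.000191, limma). With values under 20 set to 20, neither Col11a2 (adjusted p = 0.208) nor Col24a1 (adjusted p = 0.0873) passed between RBS lesions and Shh-MBs. Col27a1 was 17.1, 14.6 and 16.7 in the tumors. That is the range of the eyes, with log2 differences of -0.04 for RBS lesions (95% interval -0.49 to 0.42) and 0.27 for control eyes (95% interval -0.23 to 0.76). With median centring Col27a1 was lower in RBS lesions than in Shh-MBs (log2 difference -0.88, adjusted p = 0.00644), as it was after quantile normalization (log2 difference -1.54, adjusted p = 0.000484), and its log2 difference between control eyes and Shh-MBs turned to -0.40 and, after quantile normalization, to -0.91 (adjusted p = 0.00707).

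Ratios of a pair of genes within a sample do not depend on how the sample was scaled, except through the value of 1 that is added. They were compared for 8 pairs and 3 comparisons with two-sided exact permutation tests, adjusted over the 24 tests. The smallest p that these tests allow is 0.00794 for RBS lesions against control eyes, 0.0179 for RBS lesions against Shh-MBs and 0.0286 for control eyes against Shh-MBs. At an adjusted p under 0.05, 3 of the 8 ratios differed between RBS lesions and control eyes. Against Shh-MBs, all 8 differed in RBS lesions and 7 differed in control eyes. Each of these 7 calls was lost whichever sample was left out (exact permutation, adjusted p at least 0.0889). Most of the pairs share Col1a1, so they are not separate results, and no share over other gene pairs is given here. In RBS lesions against tumors, however, the ratio of Col11a2 to Col11a1 no longer passed with values under 20 set to 20 (log2 difference 0.032, adjusted p = 0.946).

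The chains of type I collagen kept their proportion between the eyes. The log2 ratio of Col1a2 to Col1a1 was -2.01, -1.67, -1.93 and -1.82 in control eyes and -2.28, -1.63, -1.64, -1.89 and -1.89 in RBS lesions. The means differed by -0.0084 (exact permutation p = 0.944). Type III relative to type I was higher in the lesions. The log2 ratio of Col3a1 to Col1a1 was -0.80, -0.18, -0.39 and -0.35 in control eyes and -0.0020, 0.79, 0.81, 0.87 and -0.044 in RBS lesions. All lesions lay above all control eyes, with RBS 1 and RBS 5 close to them. The difference of 0.91 is a 1.88-fold shift toward Col3a1 (exact permutation p = 0.0238, adjusted p = 0.0381). Without a control eye the adjusted p rose to 0.0779, above the threshold, for each of the 4 control eyes, where the difference was at least 0.79.

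The cartilage and vitreous chains shifted against each other. The log2 ratio of Col11a1 to Col2a1 was 0.091, -0.61, -0.18 and 0.44 in control eyes and -0.59, -1.19, -1.21, -1.33 and -1.16 in RBS lesions. RBS 1 lay just above control 2 and the other lesions below all control eyes. The ratio was 2.05-fold lower in RBS lesions (log2 difference -1.03, exact permutation p = 0.0238, adjusted p = 0.0381), and leaving out 1 sample kept it between -1.22 and -0.86, while the adjusted p rose above the threshold, to at most 0.0779, in 7 of 9 cases, all but those without RBS 1 and without control 2. The log2 ratio of Col11a2 to Col11a1 was -4.52, -4.15, -4.17 and -4.37 in control eyes and -2.63, -3.66, -3.30, -3.47 and -2.69 in RBS lesions. All lesions lay above all control eyes. The difference was 1.15, a 2.23-fold shift (exact permutation p = 0.00794, adjusted p = 0.0381), with an adjusted p of 0.0779 without control 1, and it rests on the weak signals of Col11a2.

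Against the tumors, the ratios describe a different make-up of the little collagen RNA that is there. Relative to Col1a1, the tumors had 3.28-fold more Col3a1, 3.90-fold more Col5a1, 10.5-fold more Col5a2 and 3.03-fold more Col2a1 than RBS lesions, each with no overlap between the groups and an exact permutation p = 0.0179, the smallest possible. Col1a2 relative to Col1a1 was 1.64-fold higher in the tumors than in RBS lesions and 1.63-fold higher than in control eyes. Col11a1 relative to Col2a1 was 18.4-fold higher than in RBS lesions and 8.99-fold higher than in control eyes. The ratio that did not pass between control eyes and tumors was Col11a2 to Col11a1 (exact permutation p = 0.0857). Col11a2 is at the lowest value in 2 of the 3 tumors, so this ratio is set there by the floor and the added 1, and with values under 20 set to 20 its log2 difference turned from 1.49 to -1.12.

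**Figure D3:**
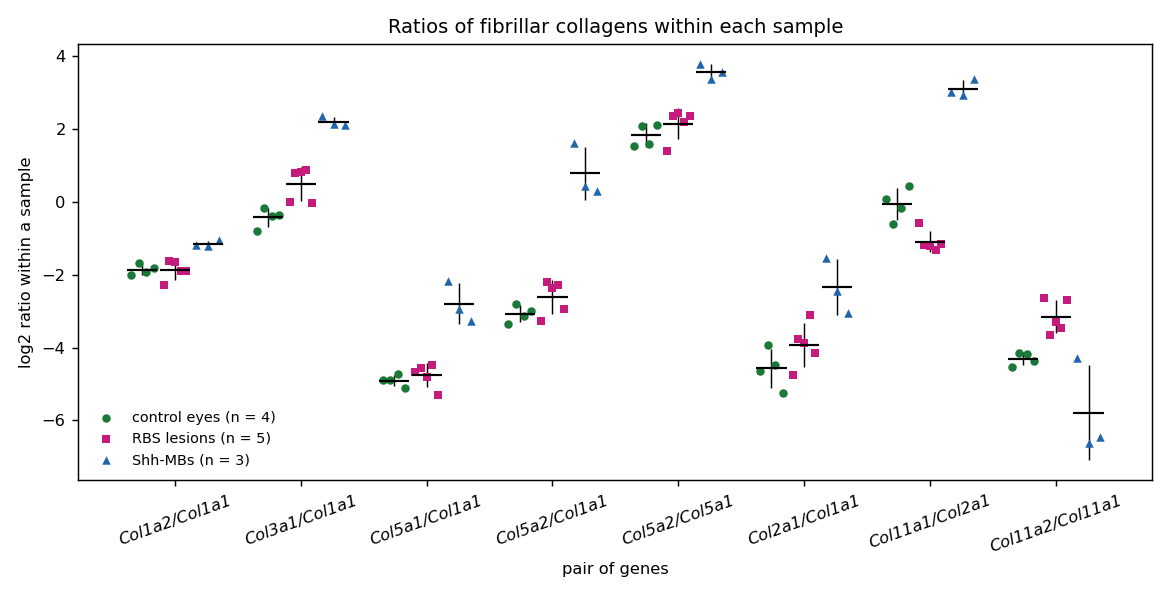
Log2 ratio of 8 pairs of fibrillar collagens within each sample, with control eyes as circles (n = 4), RBS lesions as squares (n = 5), Shh-MBs as triangles (n = 3), a horizontal bar at the group mean and a vertical line of 1 SD to each side. For Col3a1/Col1a1 the control eyes lie between -0.80 and -0.18, the RBS lesions between -0.044 and 0.87 and the Shh-MBs between 2.12 and 2.35.

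Among the eyes, most fibrillar collagens varied together from sample to sample. After the mean of each group was subtracted from the log2 values, Pearson's r over the 9 eyes was 0.914 for Col1a1 and Col1a2, 0.939 for Col3a1 and Col5a2, and 0.886 for Col5a1 and Col11a1. Col3a1 and Col5a2 are neighbours in the RefSeq annotation of GRCm38.p6, with 0 annotated genes between them. Col2a1 had -0.152 with Col1a1 and Col27a1 had -0.185, so these did not follow the type I chains. Over all 45 pairs, r ran from -0.371 to 0.939 over the 9 eyes. For the 28 pairs without Col2a1 and Col27a1, left out here for their low r, it ran from 0.306 to 0.939. Once the 3 Shh-MBs were added, these 28 pairs ran from -0.251 to 0.930, with 0.647 for Col3a1 and Col5a2 and 0.0623 for Col1a1 and Col11a2. No r for gene pairs outside the family is given here for comparison. Control 2 was low and control 4 high in Col1a1, Col1a2, Col3a1, Col5a2, Col5a1, Col11a1, Col24a1 and Col11a2, and RBS 4 was below its group mean in the same 8 genes. All values of a sample come from the same RNA and share a scaling factor, which also tie them together.

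**Figure D4:**
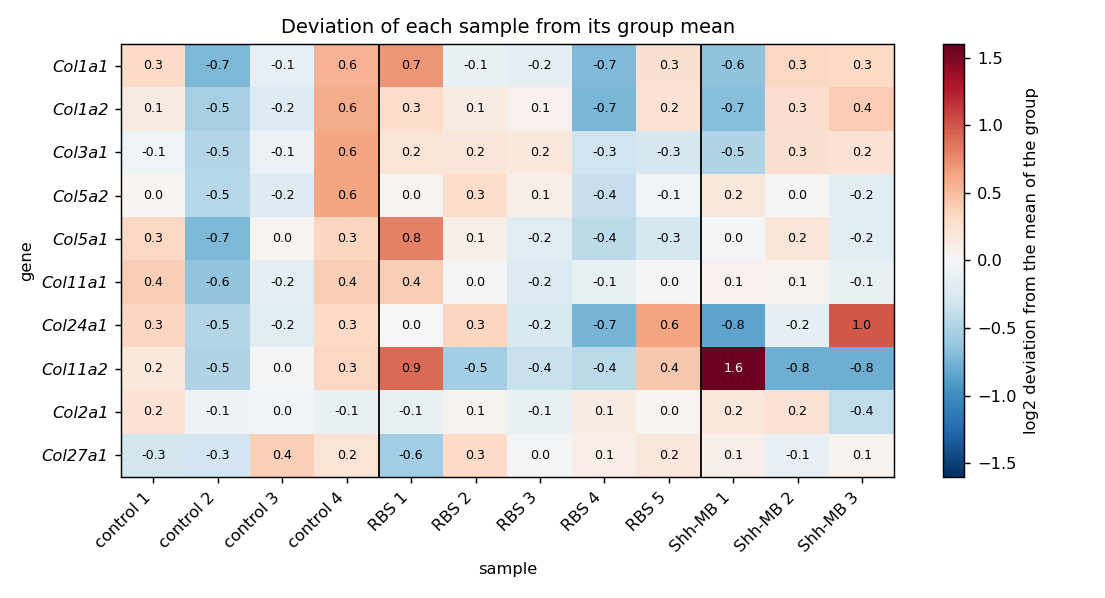
Log2 deviation of each sample from the mean of its group for the 10 fibrillar collagens, with red above and blue below the mean, and with black lines between control eyes, RBS lesions and Shh-MBs. Control 2 is below its group mean in all 10 genes, RBS 4 in all but Col2a1 and Col27a1, and the value of 1.6 for Col11a2 in Shh-MB 1 is set by the other tumors at the lowest value.

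The genes outside the family whose deviations were most like the mean of Col1a1, Col1a2 and Col3a1 were sought over the 12 samples among 465 genes with a mean signal of at least 50 in both groups of eyes. They were Ghr, the growth hormone receptor (r = 0.846), Tgfbr2, a receptor for TGF-beta (r = 0.832), Ltbp1, which holds latent TGF-beta in the matrix (r = 0.817), Edc3, an mRNA decapping factor (r = 0.815), and Pdgfra, a receptor of fibroblasts and glial precursors (r = 0.784). Between RBS lesions and control eyes none of the 5 passed the test, with log2 differences of 0.31 for Ghr, 0.19 for Tgfbr2, -0.37 for Ltbp1, 0.17 for Edc3 and 0.53 for Pdgfra, and adjusted p-values (limma) between 0.0565 for Pdgfra and 0.526 for Tgfbr2. Ltbp1 passed as lower with median centring, quantile normalization and summed-signal scaling (adjusted p = 0.0175, 0.0217 and 0.0485).

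Other matrix genes moved in both directions between RBS lesions and control eyes. Of 5 network and beaded-filament collagens on the panel, Col4a3 and Col4a4, chains of the specialized basement membrane network, were lower. Col4a3 was 171, 116, 118 and 93.8 in control eyes and 2.10, 4.97, 2.14, 23.0 and 4.14 in RBS lesions (log2 difference -4.38, adjusted p = 0.000225, limma). Col4a5, Col4a6 and Col6a6 did not pass, at log2 differences of 0.15, -0.48 and 0.68, although Col4a6 passed as lower with median centring, quantile normalization and summed-signal scaling (adjusted p = 0.0152, 0.0244 and 0.0353). Itga2, a subunit of an integrin that binds fibrillar collagen and the only one on the panel of 9 collagen receptors listed, was 36.9, 19.6, 24.8 and 29.2 in control eyes and 181, 137, 126, 180 and 158 in RBS lesions. Every lesion lay above every control eye (log2 difference 2.48, adjusted p = 1.31e-05, limma).

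Of 9 fibril-associated and matricellular proteins, 3 were higher and 3 lower in RBS lesions. The higher ones were Tnc, the tenascin of embryonic and healing tissue (log2 difference 1.34), Tnr, the tenascin of the nervous system (0.95), and Spp1, which encodes osteopontin (1.33). The lower ones were Thbs4 (-2.61) and Thbs1 (-0.96), thrombospondins that bind collagen and cells, and Tnn. Thbs4 was 435, 178, 313 and 351 in control eyes and 80.9, 44.6, 53.3, 49.5 and 28.8 in RBS lesions. Tnr was weak, at 4.42 to 6.72 in control eyes and 10.1 to 15.1 in RBS lesions. Fn1, which encodes fibronectin, did not pass (log2 difference -0.08, adjusted p = 0.843, limma). The list's median was -0.08, against 0.17 for all genes.

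Of the list of collagen-cleaving proteases and their inhibitors, the panel held 5 proteases and no inhibitor. Plat and Plau, which are plasminogen activators and not collagenases themselves, were higher, Plat by 2.11 on the log2 scale. The matrix metalloproteinases Mmp3 and Mmp9 did not pass, at log2 differences of -0.24 and -0.13, and Mmp7 was at or near the lowest value in all samples. Of 13 genes of the TGF-beta pathway, which induces collagen genes in fibroblasts, Acvr1b, an activin receptor, was higher (log2 difference 0.90), and Tgfb2 (-0.61), Tgfb3 and Thbs1 (-0.96), of which the last can release active TGF-beta, were lower. Tgfb1, Tgfbr2 and Smad3 did not pass, at 0.49, 0.19 and -0.10. The median of this list was -0.10. The numbers of lower genes were 5 with median centring and 7 with quantile normalization. None of the 10 collagen processing enzymes listed, such as prolyl hydroxylases and lysyl oxidases, is on the panel, so the processing of these chains was not analysed here.

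Markers of cell types that could supply or dilute collagen RNA also moved with the groups, and their part in the collagen differences was not tested. Of 7 mesenchyme markers, 2 were lower in RBS lesions, Sfrp2, which encodes a secreted Wnt modulator, among them, and the other 5 did not pass. By sign alone, 4 of the 7 were lower and 3 higher, and the median of the list was -0.08, against 0.17 for all genes. The summed signal of the list was 2191 to 3427 in control eyes, 1776 to 2823 in RBS lesions and, in Shh-MBs, 1518 to 2051. Of 4 cartilage and bone markers, Sox9, which drives Col2a1 and Col11a2 in cartilage (log2 difference 0.52), and Spp1 were higher, although Sox9 missed the threshold after quantile normalization. Ibsp, a bone matrix protein, was 13.4, 16.6, 1.06 and 452 in control eyes and 600, 91.6, 170, 29.0 and 452 in RBS lesions, and Comp, a cartilage matrix protein, was at or near the lowest value in all 12 samples. Ibsp did not pass between the eyes (adjusted p = 0.136, limma). The summed signal of this list was 547 to 1196 in control eyes, 1144 to 1898 in RBS lesions and, in Shh-MBs, 481 to 632. In RBS lesions most of the sum came from Sox9, at 524 to 729, and Spp1, at 469 to 857.

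Kdr, a receptor of endothelial cells, was the 1 endothelial marker of 3 that was lower in RBS lesions (log2 difference -1.49, adjusted p = 4.32e-05, limma). Flt1 and Angpt2 did not pass, at log2 differences of 0.12 and 0.22. The list, in which Kdr itself had 1641 to 2115 in control eyes and 562 to 820 in RBS lesions, summed to 1789 to 2259 in control eyes, 695 to 988 in RBS lesions and, in Shh-MBs, 129 to 235. The skeletal muscle markers Cacng1, Itga7 and Fgfr4 did not pass between the eyes, where they summed to 17.3 to 79.4 in control eyes and 34.3 to 91.7 in RBS lesions. In Shh-MBs they summed to 275 to 323, through Itga7 and Fgfr4, while Cacng1 was at the lowest value in all 3. Of 7 surface epithelium markers, 4 were higher in RBS lesions, among them Calml3 (log2 difference 0.92) and Itga2, and 3 were higher under each of the 3 other scalings. They summed to 339 to 644 in control eyes, 599 to 1073 in RBS lesions and, in Shh-MBs, 16.1 to 23.9, where Calml3 and Itga2 were at the lowest value in every tumor.

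Of 8 neuron markers, 6 were higher in RBS lesions and Bdnf was lower (log2 difference -0.55). Cacna1e, a neuronal calcium channel, was 3.53 to 7.38 in control eyes and 92.4 to 148 in RBS lesions (log2 difference 4.32, adjusted p = 1.76e-06, limma). The list summed to 773 to 945 in control eyes, 2667 to 3553 in RBS lesions and, in Shh-MBs, 714 to 1024. Of 7 blood and immune markers, Csf1r and Cd14 were higher in RBS lesions, Cd14 by 1.63 on the log2 scale, though not past the threshold after quantile normalization. Cd14 was weak, at 1.01 to 4.05 in control eyes and 5.66 to 21.8 in RBS lesions, so the size of its difference depends on the added 1. That list summed to 110 to 174 in control eyes, 210 to 284 in RBS lesions and, in Shh-MBs, 140 to 253.

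Against Shh-MBs, the lists differed in direction. Of the 5 network and beaded-filament collagens, Col4a5, Col4a6 and Col6a6 were higher in RBS lesions and all 5 in control eyes. Col6a6, a type VI chain, had 2.51, 1.48 and 5.72 in the tumors and 150 to 238 in RBS lesions. Of the 7 mesenchyme markers, 4 were higher and Pdgfra was lower in RBS lesions, and 5 were higher and Pdgfra lower in control eyes. Pdgfra, which glial precursors of the brain also express, was 770, 1075 and 1101 in the tumors and 444 to 527 in RBS lesions. Of the 13 TGF-beta pathway genes, 8 were higher and Smad3 lower in both comparisons, while with median centring 7 were higher and 3 lower in RBS lesions and 4 higher and 2 lower in control eyes. Of the 4 cartilage and bone markers, Ibsp, Sox9 and Spp1 were higher in RBS lesions, but Sox9 did not pass under any of the 3 other scalings and turned to -0.19 with median centring. In control eyes limma called 0 of the 4, also at an unadjusted p under 0.05, and 1 as lower with median centring. Of the 5 proteases, 3 were higher in RBS lesions, Mmp9, Plat and Plau. With median centring 1 was higher and 1 lower, and with quantile normalization 1 was higher and Mmp9 did not pass. In control eyes limma called 0 of the 5, with 1 at an unadjusted p under 0.05, and 1 or 2 of them as lower under the 3 other scalings. The muscle marker Cacng1 was higher and Fgfr4 and Itga7 were lower in both groups of eyes. All 7 surface epithelium markers were higher in RBS lesions and 6 in control eyes. Of the 9 fibril-associated and matricellular proteins, 7 were higher in RBS lesions, against 6 higher and 2 lower with median centring. In control eyes 4 were higher and 1 lower. All 3 endothelial markers were higher in RBS lesions, but 1 with quantile normalization, and 2 in control eyes. Of the 7 blood and immune markers, 2 were higher in RBS lesions, but 0 were higher and 4 lower with quantile normalization. In control eyes 1 of them was lower. Of the 8 neuron markers, 5 were higher and Gria3 lower in RBS lesions, and 3 were higher and 4 lower in control eyes. With quantile normalization these counts were 3 higher and 2 lower in RBS lesions and 1 higher and 4 lower in control eyes, and Bdnf turned from 0.99 to -0.52 in RBS lesions (adjusted p = 0.0268). Relative to Shh-MBs the median of all genes depends on the scaling, at 0.53 for RBS lesions as deposited and -0.32 with median centring, so small differences in these comparisons have no settled sign.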

How the data were processed

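RNA of 12 mouse samples was counted on the nCounter Mouse PanCancer Pathways panel of 770 genes. Per the study's methods, the authors compiled and normalized the counts with the nSolver software including nCounter Advanced Analysis. The deposited values are a normalized signal, not yet on a log scale, from which a background level was subtracted, with a floor for genes without signal. The background setting, the reference genes and the probe sequences are not given in the sources used here, and 0 value columns lacked a sample. The step between low values was estimated per sample, and total signal divided by it gave the depth, so weak genes rest on few counts. Groups came from the labels, with 1 animal per sample.

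Values were analysed as log2(signal + 1). Groups were compared by pairs with limma 3.58.1 in R 4.3.3 (lmFit and eBayes, two-sided, Benjamini-Hochberg over all 770 genes, threshold 0.05, 95% intervals). Ratios were compared by exact permutation over samples in Python 3.11.15, adjusted over 24 tests. No filter was used. The steps were tested on simulated data with 200 changed genes. Alternatives were a pseudocount of 5, median centring, quantile normalization, summed-signal scaling (an equal sum over all but the 3 most abundant genes), leaving out weak genes (mean signal on the log2 scale under that of 20), setting values under 20 to 20, eBayes with trend and robust settings, a fit on all 12 samples, the methods' t test (without its permutations), a replicate block and leaving out each sample.

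Named were all 10 members, from each other list the genes past the threshold with the largest rise and fall per comparison, and the 5 genes of most like pattern. A few more were named after their values were seen, to spell out small counts or describe markers. The members and the 12 other lists with genes on the panel were chosen with earlier results of these data known. Gene symbols matched the RefSeq table directly for 760 genes, all 10 members among them, and through a synonym for 10. Promoter windows came from RefSeq (GRCm38.p6). Human samples and protein data were not analysed here. The values of 2 marker genes are not reported here.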

Additional observations from a re-analysis of the deposited data

Results flagged for a closer look

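In groups of 4 and 5 samples, the lowest or highest sample was compared with the rest of its group, and a sample is given here where its gap to the nearest other sample took up more of the range than Dixon's 95% critical value. Of 122 groups of values tested, 11 met this, where chance gives about 1 in 20. In the family, Col1a2 in RBS 4 had a signal of 1553 with the next lesion at 2709, and Col11a1 in RBS 1 had 375 with the next at 280. The log2 ratios of RBS 1 stood apart for Col5a2 to Col5a1 (1.39, next 2.20) and for Col11a1 to Col2a1 (-0.59, next -1.16). Of the RBS lesions, RBS 1 also had the highest signals of Col1a1, Col5a1 and Col11a2 and the lowest depth.

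Among the other matrix genes and markers, RBS 4 was highest in Col4a3 (23.0, next 4.97) and in Tnc (726, next 532), and RBS 1 in Fgfr4 (30.0, next 17.1). In control eyes, control 4 was highest in Ibsp (452, next 16.6) and in Ghr (210.5, next 148), control 3 in Comp (2.47, next 1.17), and control 2 lowest in Tnr (4.42, next 6.34).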

How the results depend on the processing

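Of 324 differences of single collagens under alternatives that kept all samples, 272 kept their direction and their side of the threshold, 29 no longer passed, 17 newly passed and 6 changed sign. With 1 sample left out these numbers were 221, 8, 3 and 8 of 240. The sign changes with all samples kept were in genes that differed little or under other scalings. Col3a1 between RBS lesions and control eyes went to -0.17 with median centring and -0.054 with summed-signal scaling, Col11a1 between RBS lesions and Shh-MBs to -0.26 with median centring, and Col27a1 between control eyes and Shh-MBs to -0.40, -0.91 and -0.029 with median centring, quantile normalization and summed-signal scaling. The log2 ratio of Col11a2 to Col11a1 between control eyes and Shh-MBs went to -1.12 with values under 20 set to 20. With 1 sample left out, Col3a1 between the eyes ranged from -0.15 to 0.22, Col27a1 between RBS lesions and Shh-MBs from -0.11 to 0.10, and the log2 ratio of Col1a2 to Col1a1 between the eyes from -0.068 to 0.096. Ratios lost their call in 89 of 192 cases with 1 sample left out, where the smallest p that the design allows is larger.

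Between the eyes, the number of fibrillar collagens lower in RBS lesions was 4 as reported, 7 with median centring, 2 to 5 with 1 sample left out, and 2 with the methods' t test after Benjamini-Hochberg adjustment, where Col1a1 (adjusted p = 0.0887) and Col1a2 (adjusted p = 0.0522) were lost. With step-down Bonferroni adjustment the methods' t test called 0 of the 10, and 72, 80 and 36 of all genes in the 3 comparisons, where limma called 394, 468 and 316. In both comparisons with Shh-MBs it called 3 fibrillar collagens. Both versions took their p-values from Welch's t distribution and not from permutations, so they are not the study's full procedure. At an unadjusted p under 0.05, limma had 6 of the 10 collagens between the eyes, all lower in RBS lesions, where 55.8% of all genes reached this and 19.7% as lower. Of all genes, 254 were higher and 140 lower in RBS lesions against control eyes, with median centring both numbers were 177, and they were 187 and 179 with quantile normalization and 237 and 148 with summed-signal scaling. Against Shh-MBs the split was 370 higher and 98 lower in RBS lesions, which became 181 and 319 with median centring and 204 and 234 with quantile normalization. For control eyes it was 242 and 74, which became 139 and 311 and 147 and 221. The median of all genes moved with it, from 0.17 to -0.0075 between the eyes, from 0.53 to -0.32 and from 0.22 to -0.44 against Shh-MBs. The cause was not tested.

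The labels number the replicates in each group, but nothing says that a number marks a shared litter or day. Deviations of same-numbered samples had correlations from -0.15 to 0.19 over the 3 comparisons. With the replicate number as a block, 2 fibrillar collagens and 301 genes passed for the eyes, 9 and 407 for RBS lesions against Shh-MBs, and 9 and 230 for control eyes against Shh-MBs. Between the eyes the block ended the calls of Col1a1 (adjusted p = 0.0803) and Col1a2 (adjusted p = 0.0863). Depth limits the weak genes, and the differences of Col11a2 and Col24a1 against Shh-MBs rest on tumor values of at most 9.22.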
